A study of Mus musculus with 2 samples.

Results

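Aminoacyl-tRNA synthetases attach each amino acid to its tRNA, and the genes that encode them were examined here for ChIP-seq peaks of antibodies against ETS1 and ETS2 in mouse aortic endothelial cells. Members were the protein-coding genes of the RefSeq gene table of GRCm38.p6 (mm10) whose symbol follows the synthetase pattern (a capital letter and "ars", with or without a closing 1 or 2), with Eprs, Farsa, Farsb and Tarsl2 added by name. This gave 38 of 21887 protein-coding genes. By the known site of the enzyme, 19 serve the cytosol, 17 serve the mitochondrion and 2, Gars and Kars, serve both compartments from 1 gene. Symbols alone decide which genes belong, although this gene family and the lists of related genes used further on were picked with earlier results of these data known.

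Chromatin of wild-type mouse aortic endothelial cells, kept in 20% serum with heparin and endothelial growth supplement, was precipitated with 10 µg of an antibody against ETS1 or against ETS2, and single-end reads were sequenced. The design had 1 library per antibody, no other treatment or genotype, and no replicate, so intervals below cover counting alone, and a difference between the 2 peak lists has no library spread to be judged by. The ETS1 list held 77295 peaks from 143778022 tags and the ETS2 list 63556 peaks from 134607908 tags. Only 2710479 (ETS1) and 2059428 (ETS2) of these tags lay in peaks. A peak needed 30 tags, where 12.7 (ETS1) and 12.5 (ETS2) were expected. An input library was not analysed here, and a peak is therefore not shown to be a site of either factor. Peak lists hold no expression values, so the endothelial label could not be checked against markers and genes silent in these cells stay in every background below.

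Each synthetase recognises 1 amino acid and the tRNAs that belong to it, and protein synthesis stalls when a charged tRNA runs short. Cytosolic and mitochondrial translation use separate enzymes for most amino acids, all encoded in the nucleus. Several cytosolic enzymes assemble into a large multi-synthetase complex, and many cytosolic synthetase genes are raised by the transcription factor ATF4 when amino acids are scarce. ETS1 and ETS2 are related transcription factors whose binding sequence has a GGAA core.

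Synthetase genes carried peaks near an annotated end in most cases. A gene was counted when a peak centre lay within 1 kb of either annotated end. An ETS1 peak met this at 24 of 38 genes (63.2%, 95% Wilson interval 47.3 to 76.6), beside 39.4% of all protein-coding genes. An ETS2 peak met it at 31 of 38 (81.6%, 66.6 to 90.8), beside 39.96% of all genes. Both lists had an end peak at 21 members (55.3%, 39.7 to 69.9), beside 28.7% of all genes. At 12 members (31.6%, 19.1 to 47.5), beside 19.1% of all genes, an ETS1 peak overlapped an ETS2 peak at the same end by at least 1 bp. The lower limits for either list and for both lists lay above the share over all genes. That for overlapping pairs (19.08%) was almost equal to the share over all genes (19.13%) and just below it. These are descriptions of 2 lists with no test over genes. The higher number for ETS2 depended on the count used, with 21 members in each list within 500 bp of an end (beside 30.7% and 31.9% of all genes) and 22 for ETS1 against 18 for ETS2 in the first 50% of each deposited list. Weighted by the chromosomes on which the members lie, the shares over all genes were 40.8% for ETS1 and 40.8% for ETS2, so the chromosomes of the members did not change the comparison.

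**Figure D1:**
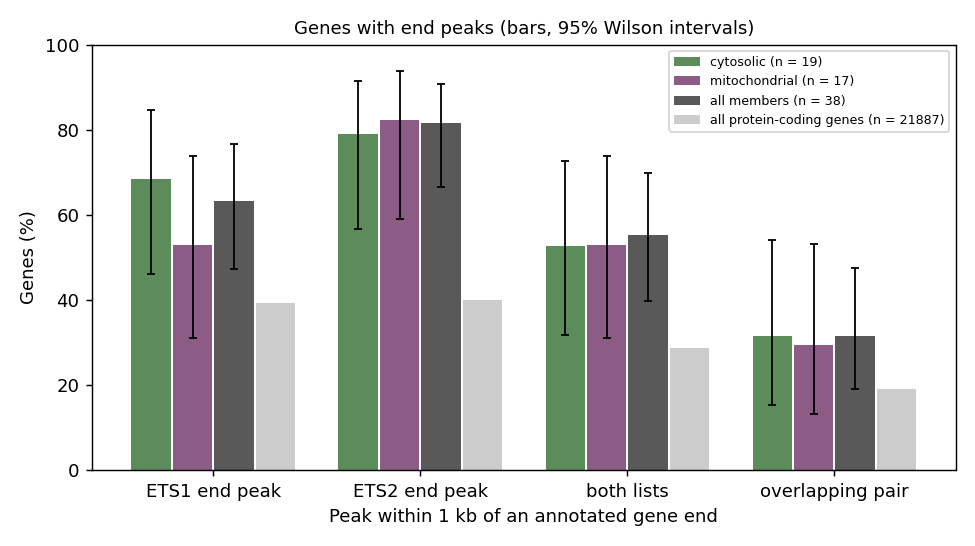
Percentage of genes with an ETS1 peak, an ETS2 peak, peaks of both lists, or an overlapping pair within 1 kb of an annotated end, for 19 cytosolic, 17 mitochondrial and all 38 synthetase genes and for 21887 protein-coding genes; bars are shares and error bars 95% Wilson intervals. The ETS2 share of all members (81.6%) stands above that of all genes (39.96%), and the cytosolic and mitochondrial intervals overlap in all 4 measures.

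The members lay close to the nearest peak. Over the 38 genes the median distance from the nearer annotated end to the nearest peak centre was 306.5 bp for ETS1 and 368 bp for ETS2, beside 3110 and 3248 bp over all protein-coding genes. Next to the 1 kb limit, the farthest members inside it were Qars for ETS1 (864 bp) and Nars2 for ETS2 (788 bp). The nearest outside it were Nars2 for ETS1 (1083 bp) and Mars2 for ETS2 (1036 bp). Within the locus and 10 kb around it, members held a median of 4 ETS1 and 2 ETS2 peaks, beside 2 and 1 over all genes. Their median length was 28650 bp, beside 17169 bp over all genes, and longer loci have more room for peaks. Fars2, which charges mitochondrial tRNA with phenylalanine and spans 420168 bp, held 45 ETS1 and 10 ETS2 peaks.

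**Figure D2:**
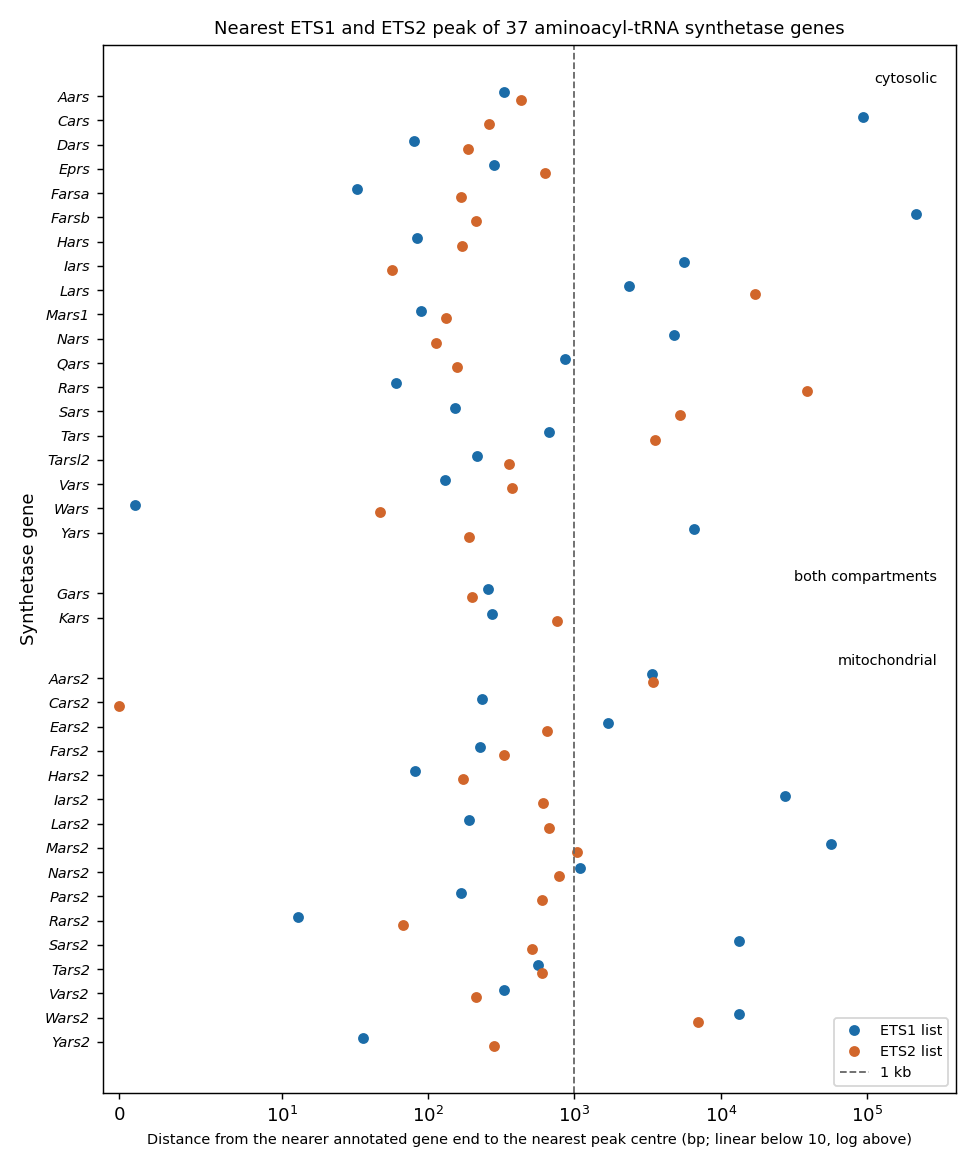
Distance in bp from the nearer annotated end of each of 37 synthetase genes to the nearest ETS1 (blue) and ETS2 (orange) peak centre, by compartment of the enzyme; the axis is linear below 10 bp and logarithmic above, and the dashed line marks 1 kb. Most points lie left of the line, and points far to the right are mainly ETS1, with Farsb at 213483 bp.

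Among cytosolic enzymes, 6 genes bore overlapping peaks of both lists at an end. Dars, the aspartyl enzyme of the complex, had 2 such pairs at its upper end on chromosome 1. The first paired an ETS1 peak at 128417248 to 128417424 with an ETS2 peak at 128417135 to 128417321, and the second paired 128416643 to 128416819 with 128416692 to 128416878. Mars1, the methionyl enzyme, which supplies the initiator as well as elongating methionine, had a pair on chromosome 10 (ETS1 127311608 to 127311784, ETS2 127311560 to 127311746). Both belong to the multi-synthetase complex. Wars, the tryptophanyl enzyme, whose expression interferon-gamma is known to raise, had a pair at its upper end on chromosome 12 (ETS1 108894088 to 108894264, ETS2 108894129 to 108894315), with the ETS1 centre 1 bp from the annotated end. Farsa, the catalytic alpha subunit of the phenylalanyl enzyme, had one at its lower end on chromosome 8 (ETS1 84856914 to 84857090, ETS2 84857045 to 84857231). Tarsl2, a second cytosolic threonyl enzyme, had one on chromosome 7 (ETS1 65645027 to 65645203, ETS2 65645165 to 65645351).

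The pair of the alanyl gene Aars lay at the other end of the gene. Its peaks on chromosome 8 (ETS1 111056211 to 111056387, ETS2 111056283 to 111056469) were centred 730 and 807 bp beyond the upper annotated end, and that end lies 770 bp from an end of Exosc6, an RNA exosome subunit gene. Gars, the glycyl gene of both compartments, had its pair at the lower end on chromosome 6 (ETS1 55038168 to 55038344, ETS2 55038109 to 55038295). The ETS2 peak of this pair stood at place 958 of the deposited list, within its first 1.51%. Chromosome 6 is dense in the ETS2 list, with an end peak at 60.6% of its genes.

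Mitochondrial enzymes with overlapping peaks were those for arginine, tyrosine, valine, phenylalanine and leucine. Rars2 had its pair across the lower end on chromosome 4 (ETS1 34614882 to 34615058, ETS2 34614932 to 34615118), and both peaks stood early in their lists (place 3637 and 2399). Yars2 paired an ETS1 peak at 16303522 to 16303698 with an ETS2 peak at 16303604 to 16303790 on chromosome 16. The 2 peaks differed in place, the ETS1 peak within the first 5.68% of its list and the ETS2 peak at 99.1% of its own. Vars2 had 2 pairs at its upper end on chromosome 17. They were ETS1 35667198 to 35667374 with ETS2 35667333 to 35667519, and ETS1 35667883 to 35668059 with ETS2 35667895 to 35668081. Fars2 had its pair on chromosome 13 (ETS1 36116929 to 36117105, ETS2 36116846 to 36117032).

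Lars2, the mitochondrial leucyl gene, differed from these in where its pair lay. The peaks (chromosome 9, ETS1 123461901 to 123462077, ETS2 123461907 to 123462093) overlapped by 171 bp at the finish of the gene, 95062 bp downstream of its start. They were the earliest member peaks in both lists, at place 1546 for ETS1 and place 198 for ETS2. At the start itself Lars2 had an ETS1 peak 190 bp downstream, at place 61744, and its nearest ETS2 peak was 21039 bp away. Whether reads gather at that finish without either antibody was not tested.

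A further 9 genes had an end peak in both lists with no overlap between them. They were Eprs, the fused glutamyl-prolyl gene, Hars (histidine), Qars (glutamine) and Vars (valine) in the cytosol, Kars (lysine) of both compartments, and Cars2, Hars2, Pars2 and Tars2 (cysteine, histidine, proline and threonine) in the mitochondrion. At Cars2 the ETS2 peak was centred on the upper annotated end (0 bp) and the ETS1 peak lay 233 bp from it. Hars and Hars2 adjoin on chromosome 18, where their annotated ends lie 3 bp apart and the genes overlap. They shared the same 2 ETS1 peaks and the same ETS2 peak, and so are not separate observations. The nearest centres lay 84 (ETS1) and 171 bp (ETS2) from the end of Hars.

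At their ends, 3 cytosolic genes had an ETS1 peak alone and 10 genes an ETS2 peak alone. The ETS1 genes were Rars (arginine, chromosome 11, 60 bp), Sars (serine, chromosome 3, 153 bp) and Tars (threonine, chromosome 15, 670 bp). Sars had 3 ETS1 peaks at its upper end, and its nearest ETS2 peak lay 5223 bp away. The nearest ETS2 peaks of Tars and Rars lay 3521 and 38450 bp from an end. The ETS2 genes included Cars, Farsb, Iars, Nars and Yars in the cytosol and Ears2, Iars2, Nars2 and Sars2 in the mitochondrion. Iars had its ETS2 peak centred 57 bp from the lower end and Nars 113 bp from the upper end. Farsb, which makes the beta subunit, carried an ETS2 peak 214 bp from its end and no ETS1 peak within 213483 bp, unlike Farsa, which makes the other subunit and had both.

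The genes in the ETS2 list alone fell mostly on chromosomes where ETS1 peaks were sparse. Of these 10 genes, 8 lay on chromosomes 1, 4 and 7, where 21.5% of 4562 protein-coding genes had an ETS1 end peak and 33.1% an ETS2 end peak. The 14 members on these 3 chromosomes had an ETS2 peak in 13 cases and an ETS1 peak in 5. On the other chromosomes, 44.1% of genes had an ETS1 and 41.8% an ETS2 end peak, and the 24 members there had them in 19 and 18 cases. Some of these chromosomes hold no member and were also sparse in ETS1, with an end peak at 26.4% (chromosome 5), 25.5% (19), 2.38% (X) and 0.391% (Y) of genes. They pull the 44.1% down. Nars2 on chromosome 7 did have an ETS1 peak 395 bp downstream of its transcription start, though 1083 bp from its annotated end. For the rest of these genes on chromosomes 1, 4 and 7, sparse ETS1 peaks there and a real absence of the factor cannot be told apart. The 3 chromosomes were grouped after their values were seen. Iars on chromosome 13 and Nars on chromosome 18 are the 2 genes outside them.

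Neither list had a peak within 1 kb of an annotated end of Lars, Aars2, Mars2 or Wars2. Lars, the leucyl gene of the complex, on chromosome 18, had its nearest ETS1 peak at 2352 bp and its nearest ETS2 peak at 17215 bp. Its locus and 10 kb around it held 9 ETS1 peaks and 0 ETS2 peaks. Wars2, the mitochondrial tryptophanyl gene on chromosome 3, had its nearest peaks at 13223 bp (ETS1) and 6958 bp (ETS2). For Mars2 the ETS2 peak just outside the window was 1036 bp away. Aars2 had both peaks at 3391 bp or more from each annotated end, but its RefSeq start lies inside those ends.

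Annotated ends take in every transcript model of a gene, and the start that RefSeq lists for promoters can lie inside them. Such a start was at hand for 28 of 38 members (12 cytosolic, 2 of both compartments and 14 mitochondrial) and for 17492 protein-coding genes. Measured from the start, an ETS1 peak lay within 1 kb at 20 of 28 members (71.4%, 52.9 to 84.7), beside 38.5% of those genes. An ETS2 peak did at 22 (78.6%, 60.5 to 89.8), beside 40.4%, and both did at 16 (57.1%, 39.1 to 73.5), beside 29.2%. Overlapping pairs lay there at 11 members (39.3%), beside 19.96%. At the finish, the annotated end opposite the start, the numbers were lower. An ETS1 peak lay within 1 kb of the finish of 6 members (21.4%, 10.2 to 39.5), beside 10.1% of genes, and an ETS2 peak at 4 (14.3%, 5.70 to 31.5), beside 7.998%.

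Reading from the start moved several genes. Aars2 had an ETS1 peak 78 bp and an ETS2 peak 122 bp downstream of its start on chromosome 17 (45506831 to 45507007 and 45506870 to 45507056), overlapping by 138 bp. Eprs likewise had an overlapping pair at its start on chromosome 1 (ETS1 185363214 to 185363390, ETS2 185363150 to 185363336), 258 and 199 bp downstream. Nars2 gained an ETS1 peak, 395 bp downstream of its start, beside an ETS2 peak 100 bp downstream. In contrast Aars, whose start lies well inside its annotated lower end, kept an ETS1 peak 393 bp upstream of the start and lost the ETS2 peak, the nearest being 5632 bp upstream. From the start, Mars2 and Wars2 were the members with neither peak within 1 kb.

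Peaks near a start lay mostly downstream of it. Taking the nearest peak of each gene with one within 1 kb, 15 of 20 ETS1 and 19 of 22 ETS2 centres were downstream of the member's start, at a median of 85 and 155.5 bp over upstream and downstream centres together. Over all genes with such a peak, 65.8% of ETS1 and 66.7% of ETS2 centres were downstream, at medians of 127 and 123 bp. Within 300 bp lay 13 of the 20 ETS1 centres (65.0%) and 17 of the 22 ETS2 centres (77.3%), beside 62.8% and 65.2% over all genes, without a test of the difference. Aars, Kars, Tars and Ears2 had upstream peaks alone. Annotated ends of Kars and Terf2ip, a telomere protein gene, lie 5 bp apart.

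**Figure D3:**
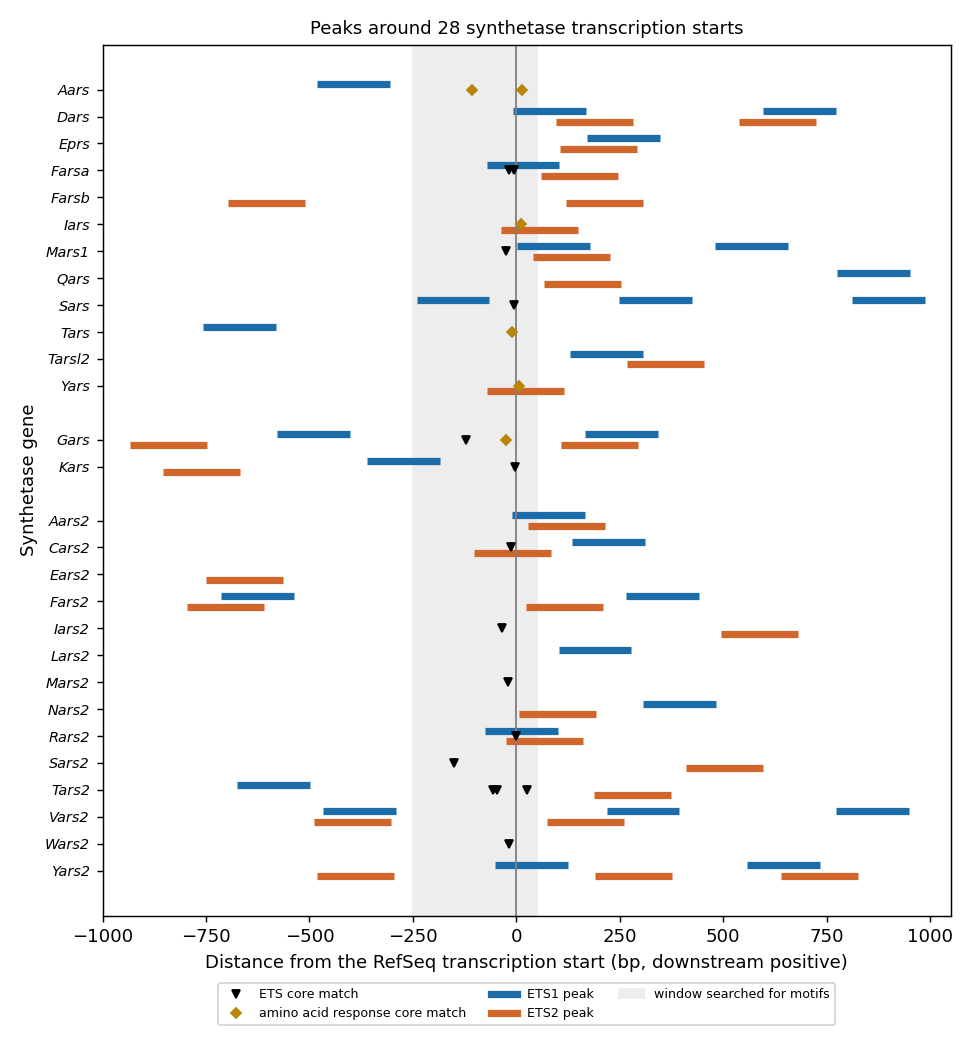
ETS1 (blue) and ETS2 (orange) peaks within 1 kb of the RefSeq start of 28 synthetase genes, drawn to scale in bp with downstream positive; triangles mark matches to the ETS core and diamonds matches to the core of the amino acid response element, searched only in the grey window. Peaks gather just downstream of the start, with medians of 85 bp (ETS1) and 155.5 bp (ETS2) for the nearest ones, and Mars2 and Wars2 have none.

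Cytosolic and mitochondrial enzymes had similar numbers of end peaks. An ETS1 peak lay at 13 of 19 cytosolic genes (68.4%, 46.01 to 84.6) and 9 of 17 mitochondrial genes (52.9%, 30.96 to 73.8). An ETS2 peak lay at 15 of 19 (78.9%, 56.7 to 91.5) and 14 of 17 (82.4%, 58.97 to 93.8). The intervals of the 2 compartments overlapped widely in both lists, and the difference was not tested. Over all protein-coding genes the shares were 39.4% (ETS1), 39.96% (ETS2) and 28.7% (both lists). Both lists marked 10 of 19 cytosolic and 9 of 17 mitochondrial genes, so every mitochondrial gene with an ETS1 end peak also had an ETS2 one. Hars and Hars2 share their end peaks, so the same peaks count in both compartments. The 2 genes of both compartments, Gars and Kars, had both peaks.

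The nearest peaks of both lists lay farther from the annotated end at mitochondrial than at cytosolic genes. The median ETS2 distance was 598 bp for mitochondrial and 214 bp for cytosolic genes, and for ETS1 it was 567 and 281 bp. These medians take in genes with no peak within 1 kb. Within 500 bp of an annotated end the ETS2 count was 6 of 17 mitochondrial genes (35.3%) and 14 of 19 cytosolic genes (73.7%), beside 31.9% of all genes, so the mitochondrial share was near that of all genes. Measured from the start, the counts within 500 bp were 8 of 14 and 9 of 12 genes, beside 34.6% of all genes, with median ETS2 distances of 282.5 and 193.5 bp. Iars2 (588 bp), Ears2 (658 bp) and Sars2 (504 bp) remained mitochondrial genes with an ETS2 peak 500 bp to 1 kb from the start.

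**Figure D4:**
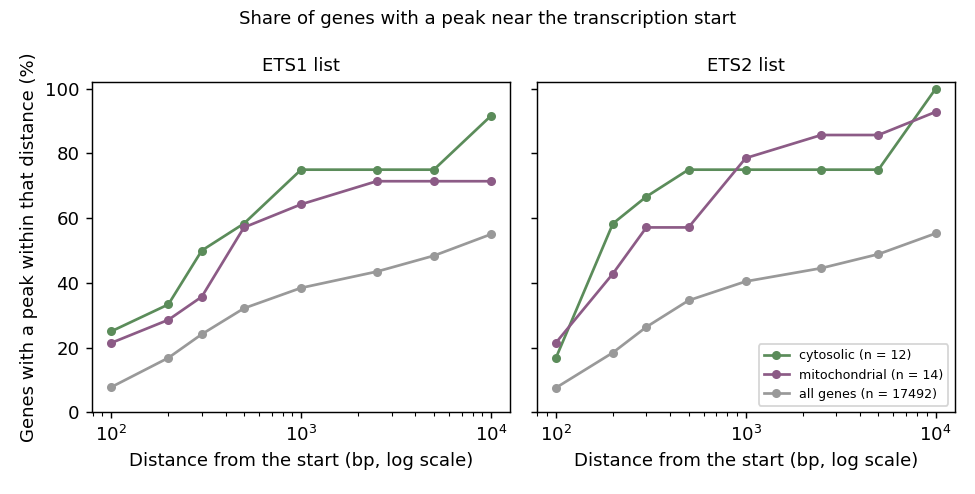
Percentage of genes with an ETS1 (left) or ETS2 (right) peak centre within a given distance of the RefSeq start in bp (log scale), for 12 cytosolic and 14 mitochondrial synthetase genes and 17492 protein-coding genes. Both synthetase lines run above that of all genes at every distance drawn, and they cross each other in the ETS2 panel, at 57.1% and 75.0% within 500 bp and 78.6% and 75.0% within 1 kb for mitochondrial and cytosolic genes.

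Many marked ends of mitochondrial synthetase genes were shared with a neighbouring gene. Of 34 members with an end peak, 15 (44.1%, 28.9 to 60.5) had it at an end within 1 kb of an end of another protein-coding gene, beside 27.6% of 11086 such genes overall. Among mitochondrial genes it was 9 of 14 (64.3%, 38.8 to 83.7) and among cytosolic genes 5 of 18 (27.8%, 12.5 to 50.9). The partners of Rars2 and Sars2 were Orc3, of the replication origin complex, 6 bp away and Mrps12, a mitochondrial ribosomal protein gene, 136 bp away. That of Vars2 was Gtf2h4, of the transcription factor TFIIH, 89 bp away. For Ears2 an end of Ubfd1 lay 1 bp away, and for Iars2 an end of Bpnt1 lay 9 bp away. A peak at such an end cannot be told apart as belonging to the synthetase or to its partner.

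Within the multi-synthetase complex, 6 of 8 genes had an ETS1 end peak and 6 an ETS2 end peak (75.0%, 40.9 to 92.9, for each). Over all protein-coding genes the shares were 39.4% (ETS1) and 39.96% (ETS2). Dars, Eprs, Kars, Mars1 and Qars had both, Rars the ETS1 peak alone, Iars the ETS2 peak alone and Lars neither. Cytosolic genes outside the complex had 8 of 12 and 10 of 12. With so few genes the shares are wide, and no difference was tested.

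The place of member peaks in the deposited order differed between the lists. The score column holds the same value in every row, so this order was all that was left of a ranking, and what it ranks is not stated. Stretches of it follow genome position. ETS1 peaks at the lower and upper end of Fars2, a gene of 420168 bp, stood at places 37142 and 37152. ETS2 peaks of Aars and Kars on chromosome 8 stood at places 29534 and 29545. A place is therefore not shown to measure peak strength, and the cut at 50% may partly sort peaks by position. The 39 ETS1 peaks at member ends stood at a median of 22.97% of the list, beside 32.1% for all ETS1 peaks at protein-coding ends, and 31 of 39 were in its first part of 50%. The 39 ETS2 peaks stood at a median of 53.4%, beside 34.2%, and 17 of 39 were in the first part. ETS2 peaks at Gars (place 958), Wars (690) and Rars2 (2399) were early, whereas those at Iars (95.4%), Mars1 (94.6%) and Cars (80.5%) were late. Without the later part of each list, ETS2 end peaks remained at 18 of 38 members, beside 28.99% of all genes, and ETS1 end peaks at 22, beside 29.1%.

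Promoter letters were read from the RefSeq promoter table of GRCm38.p6, which gives 250 bases before to 50 bases after each start, for the 28 members present in it. On either strand, CCGGAA, the core of the ETS sequence with its usual flank, was in 12 of 28 member promoters (42.9%, 26.5 to 60.9), beside 20.9% of the promoters of 17492 genes. Its longer form CCGGAAGT, which contains it, was in 3 (10.7%, 3.71 to 27.2), beside 5.69%. Those 3 genes, Rars2, Farsa and Mars1, are shown because each also bore overlapping ETS1 and ETS2 peaks at its start. The windows, from 70 bases before the start and 100 bases long, lie in mm10 at Rars2 chr4:34614887-34614986 (plus strand), Farsa chr8:84856916-84857015 (plus strand), Mars1 chr10:127311757-127311856 (minus strand). They are written along the gene, 5′ to 3′, with CCGGAAGT in capitals, in each case read on the other strand as its reverse complement.
Rars2: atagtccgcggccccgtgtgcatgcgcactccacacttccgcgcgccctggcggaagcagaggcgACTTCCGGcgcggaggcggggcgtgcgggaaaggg
Farsa: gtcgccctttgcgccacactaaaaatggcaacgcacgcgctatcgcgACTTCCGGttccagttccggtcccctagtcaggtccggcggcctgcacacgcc
Mars1: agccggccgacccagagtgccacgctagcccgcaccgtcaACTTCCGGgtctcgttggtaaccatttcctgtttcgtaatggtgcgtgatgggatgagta
In Rars2 the match lay inside both peaks, and in Farsa inside the ETS1 peak. In Mars1 it lay in neither, since both peaks began downstream of the start.

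Genes with the core more often had a start peak over all genes, while the few members did not show it. Over 17492 genes, an ETS1 start peak was present at 62.7% of genes with CCGGAA and 32.1% of genes without it, and an ETS2 start peak at 64.8% and 34.0%. Among members, ETS1 start peaks were at 8 of 12 with and 12 of 16 without the core, and ETS2 start peaks at 9 of 12 and 13 of 16. By compartment, ETS1 start peaks were at 3 of 3 cytosolic genes with and 6 of 9 without the core. For mitochondrial genes they were at 3 of 7 and 6 of 7. A departure of the members from all genes was not tested. Of the 12 promoters with the core, 3 had a match inside a peak, those of Cars2 (ETS2), Farsa (ETS1) and Rars2 (both). Only the promoter letters were searched, and many peaks near a start lay partly or wholly beyond them. A match in such a part of a peak could not be found, so the 3 do not measure how many peaks held the core. Tars2 had 3 matches, all outside its peaks, but no Tars2 peak reached into the letters searched. Wars2 and Mars2 are shown because they held the core just upstream of the start and had no peak within 1 kb of it. Their windows are Wars2 chr3:99141020-99141119 (plus strand), Mars2 chr1:55237107-55237206 (plus strand), with CCGGAA in capitals, on the other strand in Wars2.
Wars2: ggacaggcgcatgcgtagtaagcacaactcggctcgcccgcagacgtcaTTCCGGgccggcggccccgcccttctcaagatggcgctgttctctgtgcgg
Mars2: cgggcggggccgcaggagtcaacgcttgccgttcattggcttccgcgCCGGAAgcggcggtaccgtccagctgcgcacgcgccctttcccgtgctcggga
These 2 genes show a core with no peak of either list within 1 kb, though at Mars2 an ETS2 peak lay just outside, 1036 bp from the start. Of 11 members with an overlapping pair at the start, Farsa, Gars, Mars1 and Rars2 held the core in the window searched. Dars, Eprs, Tarsl2, Aars2, Fars2, Vars2 and Yars2 did not. The overlapping peaks of Eprs, Tarsl2, Fars2, Vars2 and Yars2 lay wholly outside that window, both Eprs peaks downstream of it. Whether those peaks held a core could therefore not be seen.

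The core of the amino acid response element, to which ATF4 binds together with a C/EBP protein, was searched as TGATGNAA on both strands. It was in 5 of 28 member promoters (17.9%, 7.88 to 35.6), beside 4.13% of all. The 5 were Aars, Iars, Tars and Yars of the cytosol and Gars of both compartments, and 0 of 14 mitochondrial promoters held it, which allows a share of up to 21.5% (Wilson). Among cytosolic promoters it was in 4 of 12 (33.3%, 13.8 to 60.9), an interval that overlaps the mitochondrial one, and the difference was not tested. The 5 are shown because cytosolic synthetase genes are known targets of ATF4. The windows are Gars chr6:55037931-55038030 (plus strand), Aars chr8:111033772-111033871 (plus strand), Iars chr13:49682060-49682159 (plus strand), Tars chr15:11399629-11399728 (minus strand), Yars chr4:129189833-129189932 (plus strand), with the match in capitals, on the other strand in all but Yars. Aars held a second match farther upstream, outside the window printed.
Gars: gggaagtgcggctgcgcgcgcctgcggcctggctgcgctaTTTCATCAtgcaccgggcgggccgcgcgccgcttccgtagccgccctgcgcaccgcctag
Aars: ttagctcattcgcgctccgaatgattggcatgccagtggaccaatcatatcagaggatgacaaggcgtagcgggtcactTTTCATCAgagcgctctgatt
Iars: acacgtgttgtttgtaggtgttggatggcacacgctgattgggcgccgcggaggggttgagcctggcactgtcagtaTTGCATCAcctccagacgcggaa
Tars: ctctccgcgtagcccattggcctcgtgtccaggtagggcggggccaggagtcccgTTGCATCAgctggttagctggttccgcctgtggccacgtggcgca
Yars: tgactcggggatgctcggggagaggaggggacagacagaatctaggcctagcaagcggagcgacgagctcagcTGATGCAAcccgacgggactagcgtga
At Iars and Yars the match lay inside the ETS2 peak, and both genes were in the ETS2 list alone. At Gars, Aars and Tars it lay in no peak, and Aars and Tars had an ETS1 peak alone within 1 kb of the start. No peak of Gars, Aars or Tars reached into the letters searched, so a match inside a peak could not be found there. Over all genes, a start peak was less common with this match than without it, at 22.8% and 39.1% for ETS1 and at 23.7% and 41.2% for ETS2. A match is a string of letters and is not shown to be a site.

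Genes that work with the synthetases also carried end peaks. Of 11 charging partners, 10 had an ETS1 end peak and 10 an ETS2 end peak (90.9%, 62.3 to 98.4, for each), beside 39.4% and 39.96% of all genes. Both lists had an end peak at 9 of them, beside 28.7% of all genes. Aimp1, Aimp2 and Eef1e1, the scaffold proteins of the multi-synthetase complex, had both. So had Gatb, a subunit of the amidotransferase that makes mitochondrial glutaminyl-tRNA, for which there is no mitochondrial synthetase. Aimp2 peaks lay 200 and 217 bp from an end and Eef1e1 peaks 284 and 185 bp. Pstk, which phosphorylates seryl-tRNA on the way to selenocysteine, had the ETS1 peak alone, and Sepsecs, the next enzyme of that route, the ETS2 peak alone.

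Genes of the amino acid response, the ATF4 programme that also raises synthetase genes, had an ETS1 end peak at 8 of 12 (66.7%, 39.1 to 86.2) and an ETS2 end peak at 10 (83.3%, 55.2 to 95.3), beside the same 39.4% and 39.96% of all genes. Atf4 itself had overlapping peaks (372 and 300 bp from an end). The same held for Eif2ak4, the kinase that senses uncharged tRNA (167 and 151 bp), Ddit3, a stress transcription factor (195 and 289 bp), and Asns, asparagine synthetase (68 and 224 bp). Slc3a2, an amino acid transporter subunit, and Nupr1 had the ETS2 peak alone at an annotated end, but from its RefSeq start Slc3a2 had both, at 243 bp (ETS1) and 121 bp (ETS2). Sesn2 and the cystine transporter Slc7a11 had neither, with the nearest peaks at 4612 and 9101 bp from an end.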

How the data were processed

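ChIP-seq peak lists of 1 ETS1 and 1 ETS2 library were used as deposited. Per the submitters' processing notes, the tools were HOMER, Bowtie2 and CASAVA 1.8 and the builds named are mm9 and mm10. Per the file headers, HOMER findPeaks called each library by itself in factor style at a false discovery rate of 0.01, from tag directories named for mm10 and with no control directory in the command. The threshold was 30 tags per peak. With no control directory, no input library served to remove places that gather reads for other reasons. The score column deposited by the authors is 1 in every row. Peaks are 177 (ETS1) and 187 bp (ETS2) wide, except for 1 peak in each list.

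Peaks on chromosomes 1 to 19, X and Y were set against RefSeq tables of GRCm38.p6 with Python 3.11.15 and pandas 2.3.3. Coordinates are 1-based. Intervals are 95% Wilson intervals and cover counting error only. The distance and overlap code was tested on simulated peaks at 200 genes. Members are named by their class (overlapping, both lists, ETS1, ETS2, neither), except 1 member that is counted but not reported here by name. For the 2 lists of other pathway genes, up to 4 genes per class are named in list order. Members and lists were chosen with earlier results of these data known. The analysis plan called for no tests, as there is 1 library per antibody. Sequences are RefSeq's, and the 10 members without a promoter entry are left out where starts are used.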

Additional observations from a re-analysis of the deposited data

How the results depend on the processing

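Some counts moved by over 1.5 times. In the first 50% of each deposited list, ETS2 end peaks remained at 18 of 38 members (8 of 19 cytosolic, 8 of 17 mitochondrial), beside 28.99% of all genes. Both lists remained at 13 (34.2%, beside 18.03%) and overlapping pairs at 6 (15.8%, beside 11.7%). Leaving out members with a peak at an end shared with another gene removes marked genes only, so these counts had to fall. Of 23 genes kept, 14 had an ETS1 peak (60.9%, beside 32.1% of all genes so filtered) and 16 an ETS2 peak (69.6%, beside 32.7%). Both lists had a peak at 11 (47.8%, beside 22.2%), and 7 had an overlapping pair (30.4%, beside 14.8%). Of 8 mitochondrial genes 4 had an ETS1 and 5 an ETS2 peak. A filter that does not look at peaks was chosen after seeing the data and kept the 21 genes with no end within 1 kb of another gene's end. Of these, 12 had an ETS1 peak (57.1%, beside 32.4% of all such genes) and 14 an ETS2 peak (66.7%, beside 33.1%). Both lists had a peak at 9 (42.9%, beside 22.5%), and 6 had an overlapping pair (28.6%, beside 14.98%). By compartment, 8 (ETS1) and 9 (ETS2) of 13 cytosolic and 3 and 4 of 7 mitochondrial genes had a peak, beside the same 32.4% and 33.1%. Within 500 bp of an annotated end, mitochondrial ETS2 peaks numbered 6 of 17 (35.3%), near the 31.9% of all genes. Starts alone gave 9 of 12 cytosolic genes with an ETS2 peak, beside 40.4% of all genes with a start. Within 500 bp of the start, also chosen after seeing the data, cytosolic counts were 7 (ETS1) and 9 (ETS2) of 12. The mitochondrial ETS2 count there was 8 of 14, and the shares over all genes were 32.1% (ETS1) and 34.6% (ETS2). Fewer genes enter the counts by start and by unshared ends. Windows of 2.5 kb, any peak base within 1 kb, other overlap rules and leaving out chromosomes 1 and 6 kept each count they apply to within 1.5 times. No paired analysis was possible because there is 1 library per antibody.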
